A study of Mus musculus with 9 samples.

Results

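Single cells of the mouse knee joint were read for 9 transcription factors that direct the myeloid lineages: the CCAAT/enhancer-binding proteins Cebpa, Cebpb, Cebpd and Cebpe, the zinc finger factors Gfi1 and Klf4, the ETS factor Spi1 (PU.1), the interferon regulatory factor Irf8 and the runt-domain factor Runx1. They were chosen by name, and all 9 were present among the 24296 genes measured. As background, Spi1, Runx1 and Cebpa open the myeloid programme in progenitors. Gfi1 and Cebpe then carry cells through the granulocyte stages, with Cebpe known for the genes of the secondary granules, while Irf8 and Klf4 favour monocytes. Cebpb and Cebpd are known for their induction in inflammation, and Cebpb for granulocyte production under stress.

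The samples were the left knees, whole, of female 129/Sve mice, profiled as single cells with Seq-Well, in which each cell shares a well with a barcoded bead that takes up its polyadenylated RNA. The 5 sick mice (numbered 1, 3, 4, 5 and 6) had antigen-induced arthritis, raised by mBSA given into the knee of animals sensitized to it beforehand. Their arthritis was checked by immunohistochemistry. The 4 healthy mice (1 to 4) received phosphate-buffered saline in the same joint, and the labels do not say whether they had been sensitized. All were 8 weeks old at the injection, and joints were taken 1 week later. Each mouse was 1 library and the unit of every test.

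Cells were sorted into classes by 8 marker genes each, none of them one of the 9 factors. Of 16749 cells, 857 were granulocyte progenitors (Mpo, Elane, Prtn3 and other primary granule genes), 4472 immature neutrophils (Camp, Ngp, Ltf), 596 mature neutrophils (Retnlg, Csf3r, Cxcr2), 939 monocytes (Ly6c2, Ccr2, F13a1) and 79 macrophages (C1qa, C1qb, Adgre1). A class of early progenitors (Cd34, Kit, Flt3) held 1 cell and was not used. The marker genes made up a median of 7.90% of the counts of immature neutrophils, but also 0.565% of those of the 2905 erythroid cells, a type that does not make them. The erythroid cells are therefore given beside the results as a measure of background. Whole-joint totals were 1589079 to 4675909 counts in sick mice and 896930 to 1514252 counts in healthy mice, and the median count per cell was 1451 in granulocyte progenitors, 815 in immature neutrophils, 584 in mature neutrophils and 845 in monocytes. Immature neutrophils formed 36.8%, 31.0%, 23.6%, 35.8% and 28.9% of the cells of sick mice 1, 3, 4, 5 and 6, against 29.2%, 12.9%, 7.51% and 7.44% of those of healthy mice 1 to 4. Healthy mouse 1 thus lay within the range of the sick mice, apart from the other healthy mice. Cells that met no class formed 60.27%, 53.75% and 70.4% of the cells of healthy mice 2 to 4. They formed 25.98% in healthy mouse 1 and 22.45% to 32.78% in sick mice, so the class shares of healthy mice 2 to 4 rest on fewer classified cells. Values of sick against healthy mice that moved most without it are also given with it left out.

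All 9 genes are protein-coding, and the GENCODE annotation of GRCm38 places them as follows. Cebpa lies at chr7:35119293-35121928, Cebpb at chr2:167688915-167690418, Cebpd at chr16:15887286-15891031 and Spi1 at chr2:91082390-91115756 on the forward strand, as does Irf8 at chr8:120736358-120756694. Cebpe lies at chr14:54710360-54712174, Gfi1 at chr5:107716657-107726036, Klf4 at chr4:55527143-55532466 and Runx1 at chr16:92601466-92826149 on the reverse strand. The 250 bases upstream of 1 RefSeq start each are shown for Klf4, Irf8 and Cebpb, 3 of the factors for which such a window was at hand. There was none for Cebpd, Cebpe and Spi1, so the choice is not a ranking by level. Irf8 had a further window, also with 1 GFI1 match, that is not shown. The windows come from RefSeq on GRCm38.p6, read 5′ to 3′ on the strand of the gene, with matches to any of 6 motifs in capitals.
Klf4, chr4:55532476-55532725, reverse strand: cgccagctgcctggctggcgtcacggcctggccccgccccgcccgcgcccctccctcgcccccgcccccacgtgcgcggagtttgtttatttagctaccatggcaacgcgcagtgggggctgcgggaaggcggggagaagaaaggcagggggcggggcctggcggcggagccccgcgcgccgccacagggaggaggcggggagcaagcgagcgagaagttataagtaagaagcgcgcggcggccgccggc
Irf8, chr8:120736108-120736357, forward strand: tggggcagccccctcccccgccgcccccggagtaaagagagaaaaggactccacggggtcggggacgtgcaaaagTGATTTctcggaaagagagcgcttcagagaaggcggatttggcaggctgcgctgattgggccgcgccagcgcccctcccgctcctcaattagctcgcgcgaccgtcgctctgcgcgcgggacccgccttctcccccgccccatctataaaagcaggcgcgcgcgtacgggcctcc
Cebpb, chr2:167688665-167688914, forward strand: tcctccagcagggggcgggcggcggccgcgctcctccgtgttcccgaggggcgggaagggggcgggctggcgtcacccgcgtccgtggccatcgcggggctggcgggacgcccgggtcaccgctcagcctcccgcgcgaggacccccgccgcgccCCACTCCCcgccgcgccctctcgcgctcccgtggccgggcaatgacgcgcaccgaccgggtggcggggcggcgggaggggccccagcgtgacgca
The motifs were searched on both strands: TTGCNNAA for C/EBP factors, GAGGAA for PU.1, TGTGGT for RUNX factors, AAATCA for GFI1, GAAA repeated after any 2 bases for interferon regulatory factors and GGGNGTGG for KLF factors. The Cebpb window held 1 KLF match, 95 to 88 bases upstream, and 15.9% of the 32851 mouse windows of this length held one. The Irf8 window held 1 GFI1 match, 175 to 170 bases upstream, on the reverse strand, against 12.4% of all windows. No letters of the 6 motifs stood in the Klf4 window, whose base composition was 74.0% G and C, against 81.6% in the Cebpb window and 67.2% in the Irf8 window. These matches are descriptions of the sequence and not evidence of binding.

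Along the neutrophil stages Cebpe, which is required for the secondary granules of neutrophils, was highest in immature neutrophils and low in mature neutrophils. In granulocyte progenitors it stood at 264, 266, 125, 151 and 174 counts per 1000000 counts of the class (CPM) in sick mice 1, 3, 4, 5 and 6, and at 136, 193, 127 and 85.5 CPM in healthy mice 1 to 4. In immature neutrophils it reached 363, 322, 250, 269.9 and 187 CPM in the sick mice, and 293, 130, 198 and 143 CPM in the healthy mice. Every mouse but healthy mouse 2 had more Cebpe in immature neutrophils than in progenitors. The 79 eosinophils also had Cebpe, at a pooled 275 CPM in sick mice (9 counts) and 140 CPM in healthy mice (7 counts). In mature neutrophils the 5 mice with at least 20 such cells had 48.2, 35.1, 43.5 and 36.0 CPM (sick mice 1, 3, 5 and 6) and 0 CPM (healthy mouse 1). These values were close to the 12.4 to 40.1 CPM of the erythroid cells in sick mice and the 4.27 to 33.7 CPM in healthy mice. Mature neutrophils had a log2 fold change of -3.10 ± 0.32 (SE) against immature neutrophils, lower in 5 of 5 mice (edgeR quasi-likelihood test with the mouse as a block, adjusted p = 1.07e-11). Of the 4 factors that passed the filter on low counts in that comparison, 3 changed, Cebpb and Spi1 upward and Cebpe downward, beside 37.8% of all 2558 genes tested (19.6% higher and 18.1% lower).

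**Figure D1:**
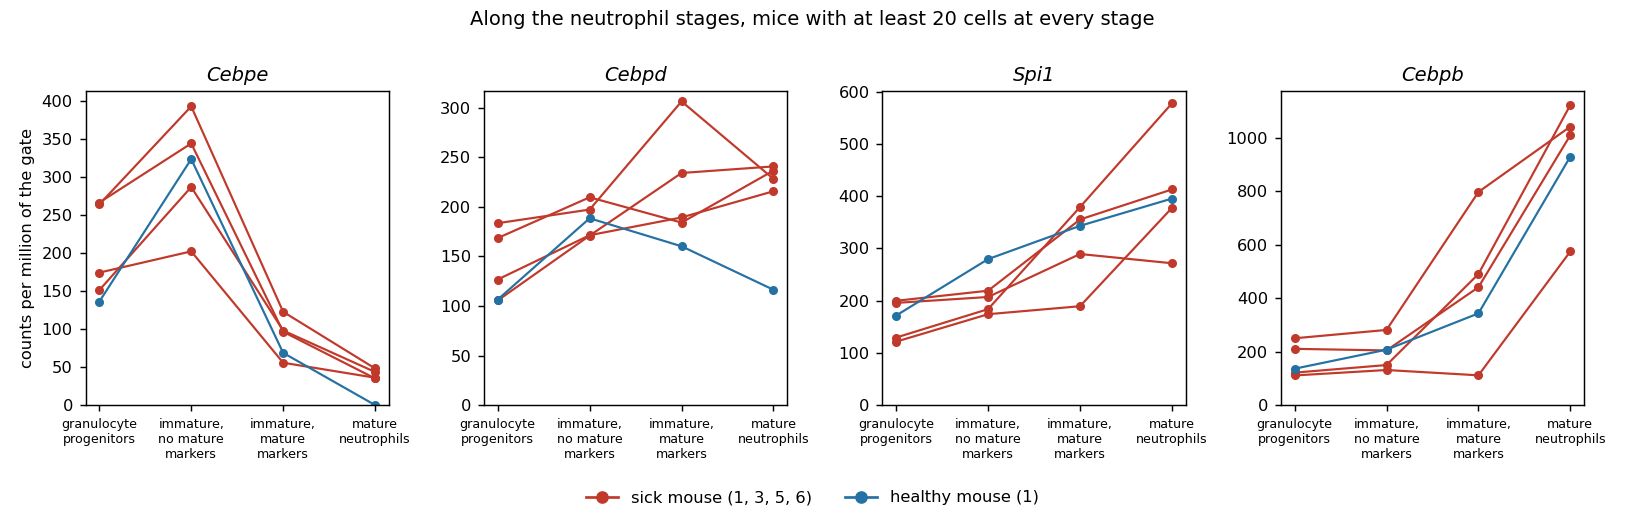
CPM of Cebpe, Cebpd, Spi1 and Cebpb (y axes, from 0) in 4 neutrophil stages (x axes) in the 5 mice with at least 20 cells at every stage, 1 line per mouse, sick mice in red and the healthy mouse in blue. Cebpe peaks in immature neutrophils without mature markers and is at or under 48.2 CPM in mature neutrophils, where Cebpb is at or above 576 CPM.

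Cebpe was lower and Cebpb higher toward the mature stage inside the immature class as well. Of the 4472 immature neutrophils, 594 also met the floor for the markers of mature neutrophils, and 3878 did not. Cebpe averaged 84.6 ± 25.3 CPM in the cells with mature markers, against 302 ± 67.1 CPM in the cells without (SD, n = 6 mice), a log2 fold change of -1.79 ± 0.23 (edgeR adjusted p = 3.09e-13, lower in 6 of 6 mice). In the same cells Cebpb averaged 430.3 ± 223 CPM with mature markers and 197 ± 52.8 CPM without, with a log2 fold change of 1.13 ± 0.16 (edgeR adjusted p = 1.53e-10, higher in 5 of 6 mice). Of the 4 factors tested there 3 changed, beside 43.3% of all 2124 genes (19.7% higher and 23.6% lower). The third was Spi1, with a log2 fold change of 0.55 ± 0.18 and an edgeR adjusted p of 0.00607, which was lost without sick mouse 1 (log2 fold change 0.45, adjusted p = 0.0698). After every cell was thinned to 400 counts, the share of cells with a Cebpe count was 7.82% in progenitors, 9.80% in immature cells without mature markers, 2.86% in those with them and 1.34% in mature neutrophils. It was 0.723% in erythroid cells. Before thinning, 26.0%, 23.2%, 6.23% and 2.18% of the cells of these 4 stages had a Cebpe count.

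Cebpb, the factor of granulocyte production under stress, had its highest neutrophil level at the mature stage. In mature neutrophils it stood at 1124, 1043, 621 (18 cells), 1011 and 576 CPM in sick mice 1, 3, 4, 5 and 6, and at 931 CPM in healthy mouse 1. In immature neutrophils it stood at 188, 329, 216, 226 and 129 CPM in the sick mice, and at 224, 92.7, 93.9 and 121 CPM in healthy mice 1 to 4. All 6 values of the mature class exceeded every value of the immature class. The log2 fold change of mature over immature neutrophils was 2.02 ± 0.15 (edgeR adjusted p = 2.40e-16), higher in 5 of 5 mice. Thinned to 400 counts, 29.0% of mature neutrophils (exact binomial 95% interval 25.4% to 32.9%) and 8.50% of immature neutrophils (7.70% to 9.35%) had a Cebpb count, against 3.20% of erythroid cells. The intervals cover counting error only. Before thinning the shares were 40.1%, 17.4% and 9.16%.

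Spi1, the ETS factor shared by granulocytes and monocytes, had smaller fold changes between the stages. It averaged 407 ± 110.2 CPM in mature neutrophils and 223 ± 41.3 CPM in immature neutrophils (SD, n = 5 mice), and was higher in 5 of 5 mice. The log2 fold change was 0.77 ± 0.18 (edgeR adjusted p = 0.000638). Without a filter on low counts it was 0.33 and was not called (adjusted p = 0.459), beside 6.33% of all genes. Cebpd, a factor induced in the acute phase response, did not pass the test between these classes. It averaged 208 ± 51.9 CPM in mature neutrophils and 190.2 ± 16.1 CPM in immature neutrophils, with a log2 fold change of 0.08 ± 0.21 (edgeR adjusted p = 0.789). Erythroid cells had 28.5 to 43.1 CPM of Cebpd in sick mice and 27.0 to 37.5 CPM in healthy mice, below every value of immature neutrophils.

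Between immature neutrophils and granulocyte progenitors the size of these differences depended on the scaling. With edgeR's scaling factors, all 4 factors that passed the filter were higher in immature neutrophils: Cebpe by 1.27 ± 0.13, Cebpd by 1.25 ± 0.14, Cebpb by 1.16 ± 0.13 and Spi1 by 1.10 ± 0.13 on the log2 scale (adjusted p from 1.20e-11 to 3.06e-10). In this comparison 74.2% of all 2412 genes were called (41.3% higher and 32.8% lower), so the count of 4 says little about these factors. On plain library totals the median of all genes shifted to -0.84, 79.7% of all genes were called, and of the 4 factors only Cebpe was (0.31, adjusted p = 0.0276). The log2 fold change was then 0.29 for Cebpd (adjusted p = 0.0652), 0.19 for Cebpb (adjusted p = 0.184) and 0.15 for Spi1 (adjusted p = 0.275). In CPM each of the 4 was higher in immature neutrophils than in progenitors in 8 of 9 mice.

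**Figure D2:**
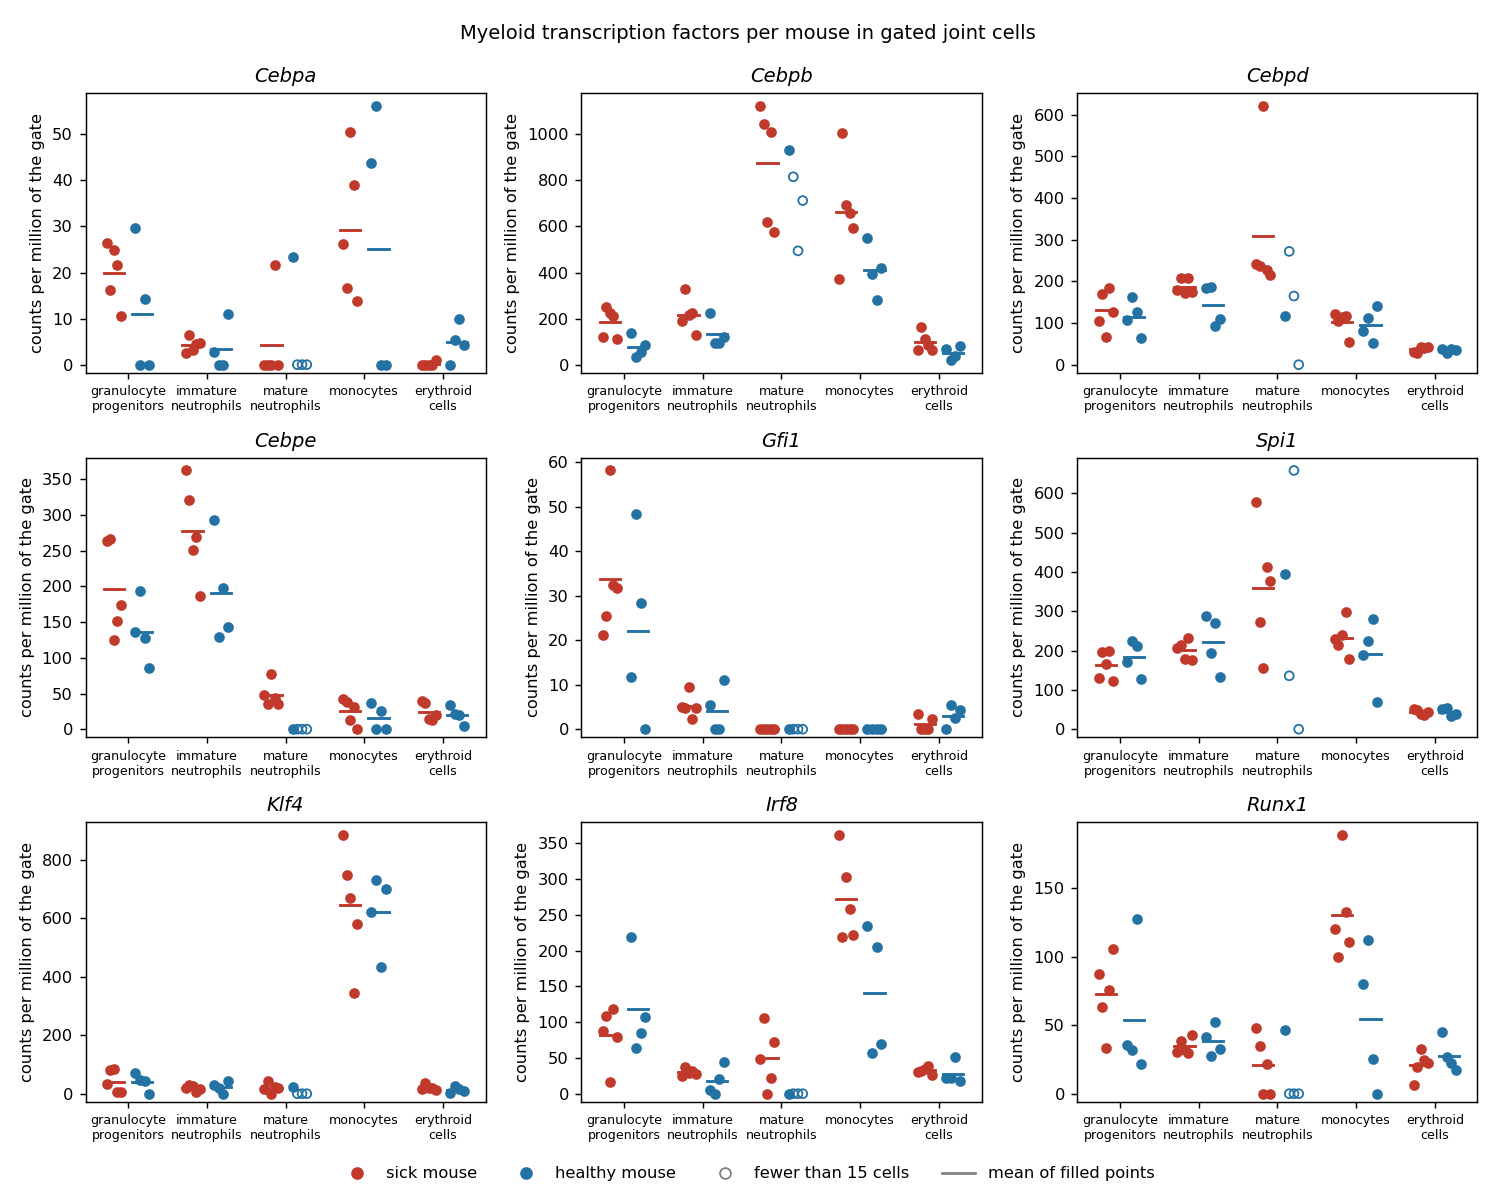
CPM of the 9 factors (1 panel each, y axes in counts per 1000000 counts of the class) in granulocyte progenitors, immature and mature neutrophils, monocytes and erythroid cells, with 1 point per mouse, sick mice in red left of healthy mice in blue, open points for fewer than 15 cells, and bars for the mean of the filled points. Klf4 is high in monocytes only among these 5 classes, and Gfi1 is at 0 in the monocytes and mature neutrophils of all 9 mice.

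Gfi1, a repressor that acts in granulocyte progenitors, was higher there than in the later neutrophil classes and monocytes. Progenitors held 48 of the 115 Gfi1 counts of the joint, immature neutrophils 22 and erythroid cells 6. The 97 B cells stood at a like level, 26.5 CPM, from 2 counts. It had 21.1, 25.4, 58.2, 32.4 and 31.7 CPM in the progenitors of sick mice 1, 3, 4, 5 and 6, and 11.8, 48.4, 28.3 and 0 CPM in those of healthy mice 1 to 4. In immature neutrophils it ranged from 2.20 to 9.51 CPM in sick mice and from 0 to 11.0 CPM in healthy mice. No Gfi1 count fell in any of the 939 monocytes or the 596 mature neutrophils, which, by a limit of 3 counts over the pooled cells and for counting error only, allows a share of cells with a count of up to 0.319% and 0.503%. In erythroid cells 0.207% had one. Against the pooled 27.1 CPM of Gfi1 in progenitors, a floor of 3 counts lay 9.38-fold lower in monocytes and 3.56-fold lower in mature neutrophils. These ratios take the progenitor level as exact and are not lower bounds of the difference. The interval for counting error ran from 20.0 to 35.9 CPM in progenitors. It reached up to 3.55 CPM in monocytes and up to 9.35 CPM in mature neutrophils. Variation between mice is not part of these pooled values. Gfi1 counts were too few for the filtered tests. Without the filter, the difference from progenitors was called for immature neutrophils (log2 fold change -1.77 ± 0.41, edgeR adjusted p = 0.000156, lower in 8 of 9 mice) and for monocytes (edgeR adjusted p = 2.93e-07, lower in 7 of 7 mice). Those unfiltered tests called 22.0% and 9.56% of all genes.

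Cebpa, which opens the granulocyte-monocyte path, was sparse. Immature neutrophils had 2.51 to 6.43 CPM in sick mice and 0 to 11.0 CPM in healthy mice, and progenitors had 10.6 to 26.4 CPM in sick mice and 0 to 29.6 CPM in healthy mice. Without the filter the log2 fold change of immature neutrophils over progenitors was -1.36 ± 0.46 (edgeR adjusted p = 0.0176, lower in 7 of 9 mice). Monocytes had 13.8 to 50.4 CPM of Cebpa in sick mice and 0 to 56.2 CPM in healthy mice. Its highest shares of thinned cells were in small classes, 8.47% of 59 basophils or mast cells and 7.59% of 79 macrophages, against 0.103% of erythroid cells.

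**Figure D3:**
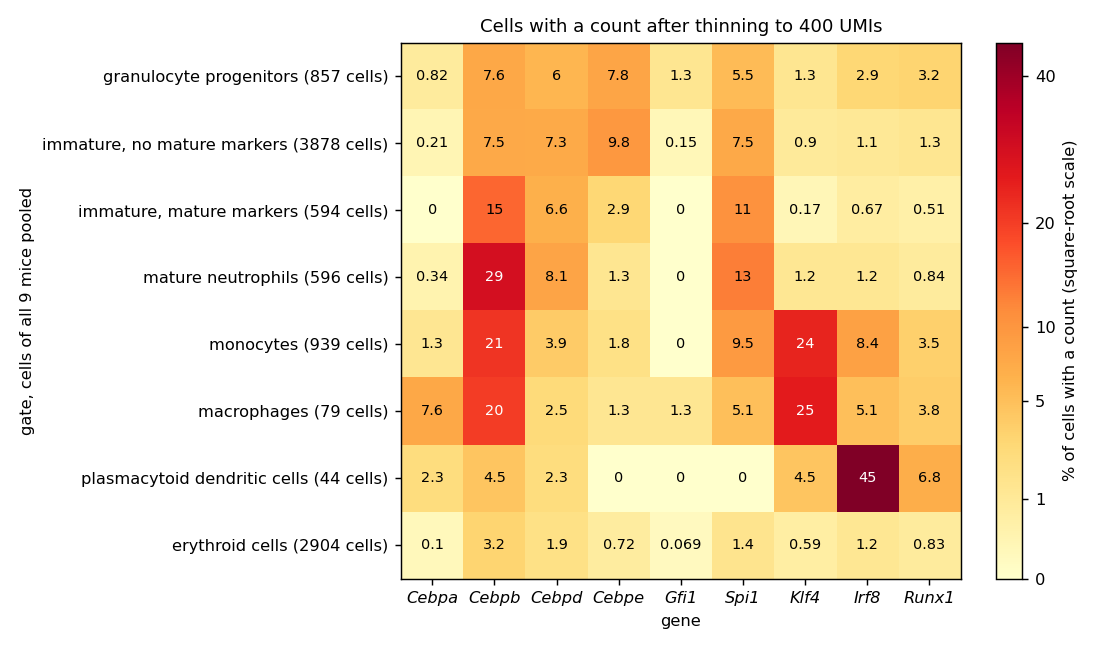
Share of cells (colour and printed number, in %) with a count of each factor (columns) after every cell was thinned to 400 counts, in 7 myeloid and dendritic classes and in erythroid cells (rows), pooled over all 9 mice. Klf4 reaches 23.9% in monocytes and 25.3% in macrophages, Irf8 45.5% in plasmacytoid dendritic cells and Cebpb 29.0% in mature neutrophils, against 0.585%, 1.21% and 3.20% in erythroid cells.

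Monocytes stood apart from mature neutrophils by Klf4 and Irf8. Klf4, a factor of monocyte differentiation, had 885, 747, 668, 344 and 580 CPM in the monocytes of sick mice 1, 3, 4, 5 and 6, and 622, 730.1, 435.0 and 701 CPM in those of healthy mice 1 to 4. Its mature neutrophil values were 0 to 43.8 CPM in sick mice and 0 to 23.3 CPM in healthy mice, near the erythroid 12.1 to 35.9 CPM in sick mice and 3.75 to 27.0 CPM in healthy mice. No monocyte value overlapped with a neutrophil value. The log2 fold change of monocytes over mature neutrophils was 3.88 ± 0.34 (edgeR adjusted p = 1.77e-10), and that over granulocyte progenitors was 3.78 ± 0.20 (edgeR adjusted p = 4.04e-19), higher in 5 of 5 and in 7 of 7 mice. The 79 macrophages had 240.3 to 836 CPM in sick mice (56 of these cells came from sick mouse 3, with 684 CPM), and no Klf4 count in the 3 macrophages of healthy mice. Macrophages were not tested, since 1 mouse alone reached the minimum of 20 of them. Klf4 was not confined to monocytes and macrophages. Stromal cells (Col1a1, Dcn) had 304, 722, 1087, 279 and 699 CPM in sick mice 1, 3, 4, 5 and 6, from 9, 61, 8, 10 and 10 cells.

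Irf8, which is needed for monocytes and for dendritic cells, had 361, 219, 302.5, 258 and 221 CPM in the monocytes of sick mice 1, 3, 4, 5 and 6, and 234, 56.2, 205 and 70.1 CPM in those of healthy mice 1 to 4. The values of healthy mice 2 and 4 rest on 1 count each, in 15 and 18 cells. In mature neutrophils it had 0 to 105 CPM in sick mice and 0 CPM in all 4 healthy mice, whose mature neutrophils numbered 65, 13, 9 and 3. The log2 fold change of monocytes over mature neutrophils was 1.56 ± 0.39 (edgeR adjusted p = 0.00111, higher in 5 of 5 mice). Over progenitors it was 1.31 ± 0.22 (edgeR adjusted p = 3.46e-06, higher in 7 of 7 mice). Irf8 was also lower in immature neutrophils than in progenitors without the filter, by a log2 fold change of -1.17 ± 0.23 (edgeR adjusted p = 4.11e-06, lower in 8 of 9 mice). Immature neutrophils at 24.5 ± 14.1 CPM (SD, n = 9 mice) were then near the erythroid cells, at 26.5 to 38.9 CPM in sick mice and 17.1 to 51.6 CPM in healthy mice. The 44 plasmacytoid dendritic cells had the highest pooled level of any class named here, 2358 CPM from 72 counts, with 1712 to 2849 CPM in sick mice and 1698 to 2959 CPM in the 3 healthy mice that had such cells.

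Cebpb, Cebpd and Spi1 ran the other way between monocytes and mature neutrophils. Cebpd was lower in monocytes by a log2 fold change of -1.72 ± 0.28 (edgeR adjusted p = 7.79e-06), Spi1 by -1.44 ± 0.23 (edgeR adjusted p = 4.69e-06) and Cebpb by -1.21 ± 0.20 (edgeR adjusted p = 9.46e-06). These too depended on the scaling. On library totals the median of all genes moved to 1.00 and 73.1% of them were called. Cebpd then stood at -0.78 (adjusted p = 0.0143) and Spi1 at -0.51 (adjusted p = 0.0461), and Cebpb at -0.29 was no longer called (adjusted p = 0.184). In CPM, Cebpd and Spi1 were lower in monocytes in 5 of 5 mice and Cebpb in 4 of 5. Of the 5 factors tested, 2 were higher and 3 lower in monocytes, beside 66.4% of all 1511 genes called (34.4% higher and 32.0% lower).

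Against granulocyte progenitors, 6 of 7 tested factors differed in monocytes, beside 47.0% of all 2656 genes (23.4% higher and 23.6% lower). Cebpb was higher by a log2 fold change of 1.89 ± 0.13 (edgeR adjusted p = 1.66e-15), at 593 ± 235 CPM in monocytes and 159 ± 70.7 CPM in progenitors (SD, n = 7 mice). Cebpe was lower by -2.65 ± 0.26 (edgeR adjusted p = 3.13e-11), at 26.7 ± 15.3 CPM in monocytes, a level the erythroid cells also had. The smaller differences of Spi1 (0.43 ± 0.16, edgeR adjusted p = 0.0230) and Runx1 (0.64 ± 0.25, edgeR adjusted p = 0.0364) did not survive every mouse left out. Spi1 was lost without sick mouse 1 (adjusted p = 0.103) or sick mouse 5 (adjusted p = 0.0743). Runx1 was lost without healthy mouse 1 (adjusted p = 0.0705) and without sick mouse 1, 3, 4 or 5 (adjusted p from 0.0564 to 0.131). Cebpd, at -0.41 ± 0.22, did not pass the test (edgeR adjusted p = 0.123). Runx1, a factor of early haematopoiesis, was too sparse for the filtered tests between neutrophil classes and between monocytes and mature neutrophils. Without the filter it was lower in immature neutrophils with mature markers (7 counts) than in those without (153 counts). The log2 fold change was -1.58 ± 0.54 (edgeR adjusted p = 0.0462, lower in 6 of 6 mice, beside 8.11% of all genes). Runx1 was higher in monocytes (95 counts) than in mature neutrophils (11 counts), again without the filter. There the log2 fold change was 1.62 ± 0.50 (edgeR adjusted p = 0.0136, higher in 5 of 5 mice, beside 13.6% of all genes). The highest share of thinned cells with a Runx1 count was in basophils or mast cells, at 16.9% of 59 cells, against 0.826% of erythroid cells.

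The main question of the study was what differs between sick and healthy joints. In the whole joint, none of the 8 factors that passed the filter was called by edgeR, beside 0.940% of all 10323 genes (97 called, 1426 at an unadjusted p under 0.05). Cebpb, Cebpd and Cebpe had an unadjusted p under 0.05. DESeq2 also called none of them. The values that came nearest were those of Cebpb, Cebpd and Cebpe. Cebpb had 199, 381, 216, 254 and 122 CPM in sick mice 1, 3, 4, 5 and 6, against 217, 73.6, 63.1 and 68.2 CPM in healthy mice 1 to 4. Healthy mouse 1 lay among the sick mice, and the other 3 healthy mice lay below all of them. The log2 fold change was 0.92 ± 0.28 (edgeR adjusted p = 0.159). Without healthy mouse 1 it was 1.30 and was called (edgeR adjusted p = 0.0201). That fit called more genes in all than the 97 called with every mouse, as counted in the last section. Without the filter on low counts the log2 fold change was 1.01 and was called (edgeR adjusted p = 0.0280), beside 1.16% of all genes. Without sick mouse 3, the highest, it was 0.69 (adjusted p = 0.362).

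Cebpd had 110, 130, 97.5, 126 and 92.9 CPM in sick joints, against 94.4, 60.2, 56.6 and 37.1 CPM in healthy joints, with a log2 fold change of 0.57 ± 0.17 (edgeR adjusted p = 0.157). Cebpe had 194, 149, 79.9, 120 and 78.2 CPM in sick joints, against 121, 54.6, 50.2 and 30.4 CPM in healthy joints, with a log2 fold change of 0.69 ± 0.26 (edgeR adjusted p = 0.259). Without healthy mouse 1 these values were 0.66 for Cebpd (adjusted p = 0.0896) and 0.99 for Cebpe (adjusted p = 0.0694). In both, the groups overlapped only through healthy mouse 1. The remaining whole-joint values were smaller: 0.29 ± 0.16 for Runx1, 0.24 ± 0.29 for Klf4, 0.23 ± 0.20 for Spi1, 0.16 ± 0.33 for Cebpa and 0.09 ± 0.17 for Irf8. The median of the 8 factors was 0.26, against -0.02 over all genes tested. It was 0.23 over 36 related factors and 0.14 over 9 cytokine receptor genes, the lists described below, so it was not particular to the 8. In a whole joint, fewer cells of a type and less RNA per cell cannot be told apart. The share of immature neutrophils was also higher in every sick mouse than in healthy mice 2 to 4, as given above. In healthy mice 2 to 4 a larger share of the cells met no class than in any other mouse. Mature neutrophils formed 4.63%, 4.42%, 1.29%, 6.05% and 3.24% of cells in sick mice and 6.18%, 1.48%, 0.643% and 0.245% in healthy mice. Healthy mouse 1 had the highest of these mature shares, and healthy mouse 2 lay above sick mouse 4. The part of these shares in the result was not tested.

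**Figure D4:**
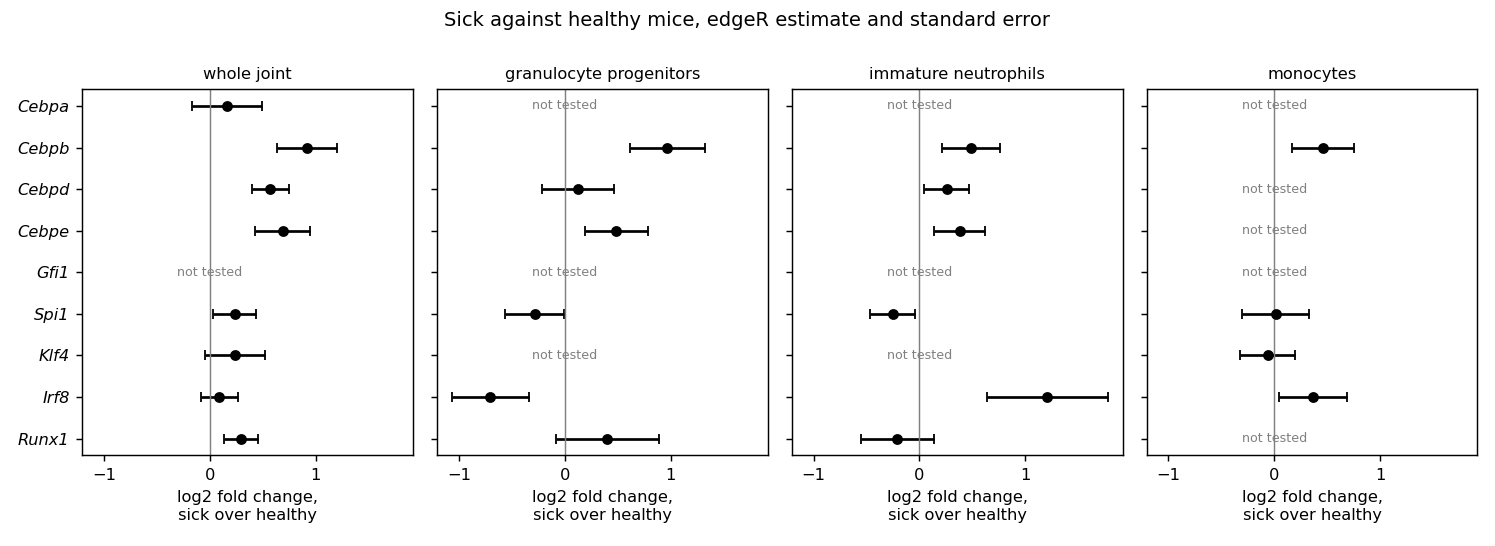
Log2 fold change of sick over healthy mice (x axes) for each factor (rows) in the whole joint, granulocyte progenitors, immature neutrophils and monocytes, as points with bars of 1 standard error from edgeR, 5 sick and 4 healthy mice each, with factors under the filter on low counts marked as not tested. None of the plotted values passed the adjusted threshold. Cebpb lies above 0 in all 4 panels, between 0.46 and 0.97.

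Within classes the factors likewise stayed under the threshold. In granulocyte progenitors none of the 6 factors tested was called, beside 0.768% of 3127 genes (354 at an unadjusted p under 0.05). In immature neutrophils none of 6 was called, beside 0.819% of 3909 genes (397 at an unadjusted p under 0.05). In monocytes none of 4 was called, beside 0.842% of 1426 genes (167 at an unadjusted p under 0.05), with mice of 15 cells or more admitted. Unadjusted p was under 0.05 for Cebpb in progenitors, for Irf8 in immature neutrophils and for no factor in monocytes. DESeq2 called none of them in any of these 3 classes. A p that misses the threshold does not show that the levels were alike.

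Cebpb again had the largest value in progenitors, with 121, 250.1, 224, 211 and 111 CPM in sick mice 1, 3, 4, 5 and 6, against 136, 32.2, 56.6 and 85.5 CPM in healthy mice 1 to 4. Its log2 fold change there was 0.97 ± 0.35 (edgeR adjusted p = 0.230), and 1.52 without healthy mouse 1 (adjusted p = 0.127). In immature neutrophils it was 0.49 ± 0.27 (edgeR adjusted p = 0.553), and 1.08 without healthy mouse 1 (adjusted p = 0.116). In monocytes Cebpb had 372, 1005, 693, 657 and 594 CPM in sick mice, against 548, 393, 281.5 and 421 CPM in healthy mice, with a log2 fold change of 0.46 ± 0.29 (edgeR adjusted p = 0.549), and 0.72 without healthy mouse 1 (adjusted p = 0.457). The same direction appeared in erythroid cells, at 63.5, 163, 112, 86.5 and 61.8 CPM in sick mice and 67.5, 21.6, 39.3 and 81.0 CPM in healthy mice, a ratio of means of 1.86. Sick mouse 3 had the highest Cebpb value of the 9 in the whole joint, progenitors, immature neutrophils, monocytes and erythroid cells. The part of free RNA in these differences was not tested.

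Mature neutrophils were not tested between the groups with these classes, because 1 healthy mouse alone reached the minimum of 20 of them. Their Cebpb values were 576 to 1124 CPM in sick mice and, from 65, 13, 9 and 3 cells, 931, 815, 494 and 712 CPM in healthy mice, the last from a single count. With the looser rule of 2 markers and no floor, 5 sick and 3 healthy mice could be compared in edgeR. It called 1 of 885 genes (0.113%, 78 at an unadjusted p under 0.05) and none of the 3 factors tested, all of them with an unadjusted p above 0.05.

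The Irf8 estimates had opposite signs in immature neutrophils and progenitors, but neither was called and both shrank without healthy mouse 1. Immature neutrophils had 25.1, 37.0, 28.5, 32.0 and 27.5 CPM in sick mice, against 5.53, 0, 20.9 and 44.0 CPM in healthy mice, with a log2 fold change of 1.21 ± 0.57 (edgeR adjusted p = 0.468). Progenitors had 87.1, 109, 16.6, 119 and 79.2 CPM in sick mice, against 219, 64.5, 84.9 and 107 CPM in healthy mice, with a log2 fold change of -0.70 ± 0.36 (edgeR adjusted p = 0.481). The groups overlapped in both classes. Without healthy mouse 1 the values were 0.55 in immature neutrophils and -0.12 in progenitors, with neither called. With each mouse left out in turn, progenitors ranged from -0.87 to -0.12 and immature neutrophils, in the 5 of 9 fits where Irf8 passed the filter, from 0.55 to 2.06. The difference between these effects, 2.07 ± 0.64, did not pass the test of the interaction (edgeR adjusted p = 0.506, over 3899 genes, of which 1 or 0.0256% was called, and none of the 6 factors tested). In monocytes the log2 fold change was 0.37 ± 0.32 (edgeR adjusted p = 0.655), and 0.72 without healthy mouse 1 (adjusted p = 0.539). Irf8 stood higher in monocytes than in immature neutrophils in each of the 9 mice, but in healthy mice 2 and 4 on 1 monocyte count each.

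The estimates of Spi1 and Klf4 lay nearer to 0. Spi1 in monocytes had a log2 fold change of 0.01 ± 0.32, in immature neutrophils of -0.25 ± 0.21 and in progenitors of -0.28 ± 0.28. Klf4 in monocytes had one of -0.06 ± 0.26, with means of 645 CPM in sick mice and 622 CPM in healthy mice. Cebpd stood at 0.12 ± 0.34 in progenitors and 0.26 ± 0.21 in immature neutrophils, and Cebpe at 0.49 ± 0.30 and 0.38 ± 0.24. Without healthy mouse 1 the progenitor values were -0.04 for Cebpd, 0.39 for Cebpe and -0.43 for Spi1. The immature neutrophil values were then 0.51 for Cebpd, 0.81 for Cebpe and -0.01 for Spi1, and Spi1 in monocytes stood at -0.18. None of these values, with or without that mouse, passed the test.

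Shares of thinned cells are given as values, since with this few splits no adjusted p could pass unless a large part of all genes reached the smallest p. In the exact permutation test of the 9 mice (126 splits, two-sided, smallest possible p 0.00794) no gene passed after adjustment in granulocyte progenitors, immature neutrophils or monocytes (0.00% of 15309, 18967 and 15425 genes). The smallest adjusted p that any gene reached was 0.534. The largest difference among the factors was that of Cebpb in monocytes, 8.25 percentage points higher in sick mice (exact p = 0.0714, adjusted p = 0.895). In progenitors it was 5.70 points higher (exact p = 0.0556, adjusted p = 1), and in immature neutrophils 4.05 points higher (exact p = 0.0714, adjusted p = 0.720). Runx1 in monocytes was 3.41 points higher in sick mice (exact p = 0.0317, adjusted p = 0.801), with 121, 99.6, 189, 133 and 111 CPM in sick mice and 80.4, 112, 25.6 and 0 CPM in healthy mice. The healthy values rest on 11, 2, 1 and 0 counts in 93, 15, 35 and 18 cells, so the difference lies near the limit of detection.

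The wider network was read from 38 factors known to act beside the 9 (dimer partners, relatives and co-regulators) and 9 cytokine receptor genes. Between sick and healthy mice none of these was called in the whole joint, progenitors, immature neutrophils or monocytes, where 36, 18, 26 and 13 of the factors and 9, 3, 5 and 4 of the receptors were tested. In mature against immature neutrophils, where 19.6% of all genes were higher and 18.1% lower, 9 factors were higher and 1 lower of 21 tested, led by Junb (log2 fold change 1.32 ± 0.12), Ets2 (1.55 ± 0.24), Zfp36 (1.37 ± 0.24) and Fos (1.08 ± 0.19). Junb and Fos are subunits of AP-1, and Zfp36 promotes the decay of inflammatory mRNAs. Against progenitors, immature neutrophils had 12 factors higher and 2 lower of 17 tested, beside 74.2% of all genes called (41.3% higher and 32.8% lower), among them Id2 (1.80 ± 0.16), Klf2 (1.43 ± 0.14), Klf6 (1.14 ± 0.11) and Myb, a factor of proliferating progenitors (-1.70 ± 0.16). Those 12 calls stand on the scaled values, whose dependence on the scaling is given above, and with so many genes called they set the list little apart.

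In monocytes against progenitors, where 23.4% of all genes were higher and 23.6% lower, 11 factors were higher and 3 lower of 17 tested, led by Fos (2.33 ± 0.13), Junb (1.71 ± 0.11), Klf6 (1.39 ± 0.11) and Myb (-2.84 ± 0.21). Of the receptors 4 were higher and none lower of 5 tested: Il6ra (2.21 ± 0.17), Ifngr2 (1.81 ± 0.25), Csf2rb (1.26 ± 0.25) and Csf2ra (1.03 ± 0.20). Against mature neutrophils, 2 factors were higher and 7 lower of 16 tested in monocytes, beside 66.4% of all genes called (34.4% higher and 32.0% lower), with Zeb2 at 1.41 ± 0.27, Nfe2 at -2.44 ± 0.33, Ets2 at -2.18 ± 0.30 and Egr1 at -1.28 ± 0.30. The receptors Ifngr1 (0.83 ± 0.28) and Il6ra (0.82 ± 0.28) were higher there and none was lower, of 4 tested. Whether the lower calls of the list hold on library totals, where Cebpb lost its call, was not tested. Il6ra was also the 1 receptor of 5 that changed in mature against immature neutrophils (1.01 ± 0.30). Csf2ra (0.93 ± 0.17) and Il6ra (0.42 ± 0.19) were higher and Ifngr1 (-1.18 ± 0.15) lower in immature neutrophils than in progenitors, of 3 tested. These calls stand beside 74.2% of all genes called, and on the scaled values, whose dependence on the scaling is given above. Csf2ra (1.03 ± 0.24) and Ifngr2 (0.83 ± 0.31) were higher in the immature cells with mature markers. Those cells had 7 factors higher and 1 lower of 18 tested, beside 43.3% of all genes called (19.7% higher and 23.6% lower), led by Junb (0.97 ± 0.12), Trib1 (1.19 ± 0.25), Klf6 (0.49 ± 0.11) and Klf2 (0.62 ± 0.17).

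The genes whose pattern was most like that of each factor were found over 46 sums of counts per class and mouse from 11 classes, by Pearson correlation of log2(CPM + 10) among 11705 genes. These sums share mice and classes, so the coefficients are descriptions. For Spi1 they were Diaph1 (r = 0.92), Lims1 (0.88) and Cyb5r4 (0.84), and for Cebpb Skil (0.88), Fxyd5 (0.88) and H2-D1 (0.88). Klf4 went with S100a10 (0.86), Emp1 (0.85) and Crip1 (0.84), and Cebpe with Lta4h (0.82), the enzyme that makes leukotriene B4, Gys1 (0.81) and Serpinb1b (0.77). Cebpd was most like Chil1 (0.81), Sgms2 (0.80) and Gm6560 (0.79), and Irf8 most like Aim2 (0.79), Cd48 (0.77) and Gm5905 (0.76). The matches of the sparse Gfi1 (Ermp1, 0.83), Cebpa (Rgs1, 0.81) and Runx1 (Gnas, 0.73) rest on few counts. Among the 9 factors themselves, the closest pairs were Cebpd with Spi1 (r = 0.69) and Klf4 with Runx1 (0.62), and the most opposed was Cebpe with Klf4 (-0.33).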

How the data were processed

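Per the labels' protocols and the submitters' processing notes, the tools were bcl2fastq, Picard, STAR and the Drop-seq core protocol, and sequencing rounds were merged. GRCh38, GRCm38 and mm9 are all named, and which was used for alignment is not given in the sources used here. The deposited matrix holds raw counts of 24296 genes in 16751 cells. Gene symbols are those of the mouse. The 9 factors, the gene lists and the classes were chosen with earlier results of these data known. Kept were the 16749 cells with 200 genes or more and no more than 20% of counts from mitochondrial genes. No doublet caller was run. The 715 cells that met several classes were left out, and 5689 met none. Of 16743 different barcodes, 8 occurred in more than 1 library.

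A cell joined a class when it had at least 3 different markers and the markers' share of its counts passed a floor: 3% for immature neutrophils, 1.5% for mature neutrophils, 1% for stromal and muscle cells and 0.5% otherwise. A rule on marker numbers alone was planned, and was replaced after the data were seen, because granule transcripts also lay in other classes. Erythroid cells held a median of 3 different markers of immature neutrophils. Whether free RNA was the source was not tested. The planned rule is kept as an alternative. Progenitors took precedence over neutrophils, immature over mature neutrophils and macrophages over monocytes. Within 25% above its floor lay 366 immature and 89 mature neutrophils, 148 monocytes and 108 progenitors.

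Counts were summed per mouse and class and tested with edgeR 4.0.16 in R 4.3.3 (filterByExpr, TMM, quasi-likelihood test, Benjamini-Hochberg over all genes tested, threshold 0.05). Mice needed 20 cells in a class, or 15 for monocytes between groups. Tests between classes kept the mouse as a block, since both classes came from the same animals. The fits were tested on simulated data. CPM values are plain counts per 1000000 counts of the class. Shares were compared by exact permutation after thinning to 400 counts. The comparisons of monocytes with progenitors, of immature neutrophils with and without mature markers, and of the disease effect between progenitors and immature neutrophils were added after the data were seen. Planned comparisons whose classes fell under the minimum of cells were not run with these classes. They were macrophages against monocytes, the disease effect in mature neutrophils and macrophages, and the difference of the disease effect between mature neutrophils and monocytes. Alternatives were DESeq2 1.42.0, median-ratio factors, library totals, no filter, other class rules, cells with at least 400 genes, and mice left out. All 9 factors, and up to 4 called genes of each list and comparison with the smallest p, were named. The labels give no sequencing batch. No source says that the animals were processed separately beyond being separate mice. Other steps ran in Python 3.11.15 (pandas 2.3.3, scipy 1.17.1, numpy 2.4.6 and, for plots, matplotlib 3.10.9).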

Additional observations from a re-analysis of the deposited data

Results flagged for a closer look

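Among the 48 groups of mice examined (each tested factor in each class, sick and healthy separately), 3 held a mouse far from the others; chance flags about 1 in 20 such groups. In the whole joint of healthy mouse 1, Cebpb stood at 217 CPM, against 63.1 to 73.6 CPM in the other 3 healthy mice. Cebpa stood at 11.9 CPM in the same mouse, against 3.71 to 5.02 CPM in the other 3. In granulocyte progenitors, Runx1 stood at 127 CPM in healthy mouse 3, against 21.4 to 35.5 CPM in the other healthy mice. No cause was tested.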

How the results depend on the processing

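The 21 called results of single factors held their direction under all 335 alternatives run for them and lost their call in 21, and the 27 uncalled ones changed sign in 41 of 484. Members called moved from 4 to 7 without a filter and to 1 on library totals (immature neutrophils against progenitors), from 5 to 3 with floors 1.5 times as high (monocytes against mature neutrophils) and from 0 to 1 in the whole joint without a filter. With 1 mouse left out at a time they ranged from 0 to 1 in the whole joint, 4 to 5 for immature neutrophils against progenitors, 4 to 6 for monocytes against either class and 2 to 3 inside the immature class. Reversed, all uncalled, were these sick-against-healthy log2 values, whose cause was not tested. With healthy mouse 1 as the only healthy mouse, assumed to vary like the others, the whole joint gave -0.34 for Cebpa, -0.054 for Irf8, -0.22 for Klf4 and -0.23 for Spi1, progenitors 0.040 for Spi1, immature neutrophils -0.024 for Cebpe and monocytes 0.077 for Klf4. Without a filter, Spi1 gave 0.00053 in progenitors and 0.045 in immature neutrophils, Runx1 0.063 in immature neutrophils and Klf4 0.39 in monocytes (0.17 on library totals). Between neutrophil stages Cebpd gave -0.20 (with over without mature markers) and -0.35 (mature over immature) without a filter. With classes by at least 2, 3 or 4 markers, Spi1 in immature neutrophils gave 0.12, 0.11 and 0.053. At 2 and 4 markers Runx1 gave 0.0064 and 0.020 there, at 4 Irf8 gave -0.15, and at 2 and 3 monocytes gave -0.18 and -0.084 for Irf8 and -0.16 and -0.11 for Spi1. Cells with at least 400 genes gave 0.52 for Runx1 in immature neutrophils. With single mice left out the ranges were -0.043 to 0.30 (Cebpd) and -0.024 to 1.22 (Runx1) in progenitors, -0.17 to 0.11 (Klf4) and -0.18 to 0.33 (Spi1) in monocytes, and -0.032 to 0.21 (Irf8) and -0.013 to 0.46 (Klf4) in the whole joint.

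The replicate numbers mark different animals, and the deviations of same-numbered mice correlated at 0.164, -0.0187 and 0.0573. With the replicate block, 70 genes were called in the whole joint, 4 in progenitors, 15 in immature neutrophils and 22 in monocytes, against 97, 24, 32 and 12 without it, and no factor. Under that replicate block Cebpd in progenitors gave -0.0053, Irf8 in the whole joint -0.023, and monocytes 0.26 for Klf4 and -0.053 for Spi1. Counts over all genes moved by more than 1.5 times under 59 of 155 alternatives. Sick against healthy they were 252 with DESeq2, 282 without a filter, 51 with cells of at least 400 genes and 255 without healthy mouse 1 in the whole joint. They were 15 with DESeq2, 67 without a filter and 52 with lower floors in progenitors. Immature neutrophils had 94 without a filter, 111, 119 and 51 by marker numbers, and 7 with cells of at least 400 genes. Monocytes had 33 without a filter, 25 on library totals, 6 with median-ratio factors, 5 with lower floors, and 4 and 6 by marker numbers. With single mice left out the 4 comparisons ranged over 53 to 255, 5 to 31, 17 to 71 and 3 to 22. Between classes, dropping the filter gave 5040, 1748, 2573 and 2028 (from 1789, 920, 1004 and 1247), and classes by marker numbers gave 2731 and 2708 for immature neutrophils against progenitors, 589 to 596 (from 966) and 599 to 611 (from 1004). Sick mice alone gave 3529 for the first. Stricter class rules left too few mice above the minimum of monocytes and were not run between sick and healthy mice there.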
